A study of Mus musculus with 32 samples.

Results

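The genes described here are 37 matrix genes of the tumour: 16 encode proteins of basement membranes, 20 encode proteins of the interstitial stroma that fibroblasts make or enzymes that act on them, and 1, Sparc, encodes a matricellular protein that binds collagens. They were taken from a list of gene names, chosen when earlier results of these data were known, by a rule that uses no measured value. Of the 37, 35 had a probe that could be named among the 20145 named genes of the array. Col6a3 and Col12a1 had no matched probe and are not analysed here. Where a gene had several probes, the one with the highest mean over the 32 arrays stands for it, and all 35 genes were tested in every comparison below.

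The tumours grew from 4T1-Luc cells, a line of mouse mammary carcinoma that carries luciferase, placed in a mammary fat pad of Balb/C mice, all female and 8 weeks of age. When tumours had established for 1 week, the animals were given sunitinib at 40 mg/kg, which blocks several receptor tyrosine kinases such as those for VEGF and PDGF, in PBS with 3.72% DMSO, or that vehicle without drug. Tumours of 1300 mm3 were split by beads against PECAM-1, a surface protein of endothelial cells, into the selected fraction (EC) and the digested remainder (bulk), each with 4 arrays from sunitinib mice labelled sensitive up to day 8, 4 from sunitinib mice labelled resistant, and 4 from vehicle mice. Smaller tumours were measured as bulk only, with 2 sunitinib and 2 vehicle arrays at day 9 and the same numbers at 600 mm3, and their sunitinib mice are all labelled sensitive. Replicates are separate mice, and the EC and bulk arrays of 1 number and treatment come from the same tumour. All groups share 1 transplanted line in 1 mouse strain, so the comparisons concern that model.

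Basement membranes are thin sheets under endothelium and epithelium and around mural cells. Their frame is made of laminin trimers (an alpha, a beta and a gamma chain) and of a collagen IV network, which nidogens and the heparan sulphate proteoglycans perlecan and agrin join together. Interstitial stroma is built of collagen fibrils of types I, III and V with microfibrils of collagen VI and fibrillin, is spaced by small leucine-rich proteoglycans, and is cross-linked by lysyl oxidases. In vessels the laminin alpha chains are mainly those of Lama4 and Lama5, whereas Lama3 belongs mostly to epithelial basement membranes.

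Levels are given as log2 of the array signal relative to the 75th percentile of the same array, so that a log2 difference of 1 is a doubling. A level can be compared between arrays for 1 gene, not between genes. A gene was called changed when its limma p, adjusted by Benjamini-Hochberg over all genes of that comparison, was under 0.05. The share of all tested genes called is given beside the first count of members called in a comparison. It also stands beside counts from single fits with an array left out and beside counts in other settings.

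The arrays lay on 4 slides: EC arrays of sensitive and vehicle mice on the first, all 8 arrays of resistant mice on the second, bulk arrays of sensitive and vehicle mice on the third, and the smaller tumours on the fourth. Resistance and slide can therefore not be told apart in the comparisons of resistant mice with others, and the same holds for size and slide between 1300 mm3 and smaller tumours. On the other 3 slides all sunitinib arrays lay in the first column and all vehicle arrays in the second, so treatment and column cannot be told apart there. Between 46.1% and 52.9% of probes were detected well above background on EC arrays from resistant mice, against 79.9% to 86.4% and 80.3% to 82.2% on those of sensitive and vehicle mice. A pair of bulk arrays stood apart from their groups. The bulk array of vehicle mouse 3 had a mean level of 17 endothelial marker genes of 0.96, whereas the other vehicle bulk arrays ranged from -2.97 to -2.52, and the bulk array of resistant mouse 2 had 83.5% of probes above background, whereas the other resistant bulk arrays had 55.3% to 58.8%. The labelled endothelium carried its markers: the endothelial mean level was 2.08 to 3.69 on the 12 EC arrays, against -3.26 to 0.96 on the 12 bulk arrays. Tumour epithelial markers were not absent from the EC fraction, at mean levels of 1.16 to 3.60 over 12 genes, against 2.88 to 4.58 in bulk.

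Promoter sequences from RefSeq (build GRCm38.p6, 250 bases before the start of the gene to 50 after it) were found for 23 of the members. The first pair is shown because Col4a1 and Col4a2, which encode the collagen IV chains of most basement membranes, lie head to head, and their windows share 78 bases. The capitals mark that shared stretch, read on opposite strands. The window of Col4a1 is chr8:11312777-11313076 on the minus strand and that of Col4a2 is chr8:11312555-11312854 on the plus strand.
Col4a1: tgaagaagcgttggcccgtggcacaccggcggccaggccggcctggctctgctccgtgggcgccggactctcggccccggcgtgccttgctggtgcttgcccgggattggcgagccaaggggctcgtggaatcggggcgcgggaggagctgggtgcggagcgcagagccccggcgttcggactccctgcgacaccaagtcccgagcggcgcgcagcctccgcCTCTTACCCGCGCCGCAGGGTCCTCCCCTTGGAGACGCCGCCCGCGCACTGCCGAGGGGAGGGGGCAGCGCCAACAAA
Col4a2: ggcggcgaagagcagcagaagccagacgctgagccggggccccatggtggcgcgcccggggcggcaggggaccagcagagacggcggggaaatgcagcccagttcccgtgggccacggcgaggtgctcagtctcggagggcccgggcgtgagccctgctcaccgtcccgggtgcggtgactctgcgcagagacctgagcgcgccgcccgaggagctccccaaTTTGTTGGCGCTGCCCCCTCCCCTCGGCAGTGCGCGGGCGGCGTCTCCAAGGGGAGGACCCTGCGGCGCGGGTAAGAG

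The next 3 windows are shown to set a gene of the EC fraction beside genes of stromal collagen: Nid1 (chr13:13437352-13437651, plus strand) encodes nidogen-1, and Col1a2 (chr6:4505368-4505667, plus strand) and Col3a1 (chr1:45311288-45311587, plus strand) encode fibrillar collagen chains. Here the capitals mark each match, on either strand, to GGGCGG (a GC box), CCAAT (the box named after it) or TATAAA (the letters of a TATA box).
Nid1: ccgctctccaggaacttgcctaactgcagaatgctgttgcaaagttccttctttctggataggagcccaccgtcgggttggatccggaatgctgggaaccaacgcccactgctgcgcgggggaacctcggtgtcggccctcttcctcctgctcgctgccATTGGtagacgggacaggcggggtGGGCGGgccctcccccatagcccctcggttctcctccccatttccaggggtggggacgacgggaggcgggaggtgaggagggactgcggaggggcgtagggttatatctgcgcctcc
Col1a2: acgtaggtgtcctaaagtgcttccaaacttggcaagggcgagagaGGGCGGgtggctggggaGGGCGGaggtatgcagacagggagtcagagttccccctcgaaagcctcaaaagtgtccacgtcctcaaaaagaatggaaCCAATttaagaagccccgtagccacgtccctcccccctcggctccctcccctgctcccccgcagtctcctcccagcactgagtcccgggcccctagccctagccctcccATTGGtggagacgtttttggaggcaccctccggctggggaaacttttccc
Col3a1: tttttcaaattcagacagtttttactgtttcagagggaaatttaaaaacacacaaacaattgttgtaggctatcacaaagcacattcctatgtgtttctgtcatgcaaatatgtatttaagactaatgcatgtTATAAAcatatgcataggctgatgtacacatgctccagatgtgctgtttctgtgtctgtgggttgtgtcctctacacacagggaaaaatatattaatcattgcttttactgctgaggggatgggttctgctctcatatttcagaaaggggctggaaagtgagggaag

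The windows differ in base composition, with 74.0% and 73.7% G or C in Col4a1 and Col4a2, 64.7% in Nid1, 61.0% in Col1a2 and 37.7% in Col3a1. Members were counted by gene, with a match in any window of the gene, and the background by single window. The shares are therefore not on the same footing where a gene has several windows. GGGCGG was found for 9 of 11 basement membrane genes and 6 of 11 stromal genes, and in 35.7% of all 32851 windows. CCAAT was found for 5 of 11 basement membrane genes and 2 of 11 stromal genes, and in 37.4% of all windows. TATAAA was found for 0 of 11 basement membrane genes and 3 of 11 stromal genes, and in 13.6% of all windows. Both strands were searched, the motifs can overlap at their ends and were counted separately, and a match describes the letters only.

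The first comparison asks which matrix genes are carried by the PECAM-1 selected cells and which by the rest of the tumour. The EC fraction had higher levels of the nidogens, laminin alpha 4 and collagen IV, and lower levels of most stromal collagens and lysyl oxidases. Over 12 mice, with mouse as a block, 22 of 35 members passed the test, against 52% of all genes tested. Of the 16 basement membrane genes 7 rose and 3 fell, and Sparc rose. Of the 18 stromal genes 1 rose and 10 fell. Among all genes 22.3% were called higher and 29.7% lower, so the number of members called is near the background, and the result lies in which genes moved which way. The median log2 difference was 0.04 over the basement membrane genes and -0.56 over the stromal genes, beside -0.06 over all genes tested.

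Nid2 encodes nidogen-2, a linker of laminin and collagen IV. Its level ranged from 0.84 to 3.11 on the 12 EC arrays with a median of 1.76, against -4.78 to 0.37 in bulk with a median of -3.21. Every EC array was above every bulk array, and the difference of 4.33 ± 0.29 (SE) was the largest of the members, a 20.2-fold difference (limma adjusted p 2.3e-06). Bulk vehicle mouse 3 gave the bulk value of 0.37, far from the -3.31 to -3.16 of the other vehicle bulk arrays. Its paralogue Nid1, nidogen-1, ranged from 2.12 to 4.18 in EC (median 2.98), against -0.53 to 2.26 in bulk (median 0.97). The ranges overlapped only through bulk vehicle mouse 3 at 2.26, and the difference was 2.20 ± 0.19 (limma adjusted p 8.06e-06). Another pair of Nid1 probes gave differences of 2.80 and 1.09, both called.

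Lama4, the laminin alpha chain of vessel walls, ranged from 1.36 to 3.30 in EC (median 2.02), against -1.18 to 1.80 in bulk (median 0.05). The highest bulk value was again vehicle mouse 3, and the difference was 2.08 ± 0.18 (limma adjusted p 6.76e-06). Col4a2 ranged from 3.76 to 5.99 in EC (median 4.74), against 2.09 to 3.78 in bulk (median 2.80), a difference of 1.99 ± 0.12 (limma adjusted p 1.82e-06). Col4a1 ranged from 4.02 to 5.81 in EC (median 4.64), against 2.41 to 4.15 in bulk (median 3.14), a difference of 1.56 ± 0.14 (limma adjusted p 1.16e-05). Both collagen IV genes were higher in EC in each of the 12 mice, by 1.10 to 3.02 for Col4a2 and by 0.48 to 2.89 for Col4a1.

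The other basement membrane genes were more varied. Col15a1, a collagen found at the outer face of basement membranes, rose by 1.12 ± 0.34 in the EC fraction (limma adjusted p 0.017), with levels of -2.92 to -1.31 in EC against -4.90 to -0.79 in bulk. Its bulk values were scattered: resistant mouse 2 had -0.79 and the other resistant bulk arrays -4.90 to -4.75. Col18a1, the precursor of endostatin, rose by 0.44 ± 0.14. Lamb2 (laminin beta 2) fell by 0.39, Lama3 by 0.89 and Lama5 by 1.01. Lama3 was lower in EC in each of the 12 mice, with levels of -1.49 to 0.55 in EC against -0.02 to 1.52 in bulk. Lama1, Lama2, Lamb1, Lamc1, Hspg2 (perlecan) and Agrn (agrin) did not pass the test, with differences between -0.42 and 0.04. Laminin alpha 4 was higher in the EC fraction without a called rise of the beta 1 (-0.41 ± 0.16) and gamma 1 (-0.32 ± 0.13) chains with which it forms a trimer.

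Sparc, which encodes osteonectin, was higher in EC in each of the 12 mice. It ranged from 7.97 to 8.93 in EC (median 8.48), against 6.49 to 8.20 in bulk (median 7.30), and the difference was 1.05 ± 0.14 (limma adjusted p 9.34e-05).

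Among the stromal genes the collagen I, III, V and VI chains and the lysyl oxidases, which cross-link collagen and elastin, were lower in EC or not called. Col1a1 ranged from 4.01 to 6.24 in EC (median 5.63), against 3.98 to 6.34 in bulk (median 5.87), and its difference of -0.18 ± 0.19 did not pass (limma adjusted p 0.46). Col3a1 ranged from 3.47 to 5.72 in EC (median 5.16), against 3.66 to 6.59 in bulk (median 5.67), and fell by 0.55 ± 0.21 (limma adjusted p 0.0483). Lox fell by 1.06 ± 0.24, Col5a1 by 1.01 ± 0.20, Loxl1 by 0.97 ± 0.13 and Lrrc15, a surface protein of tumour fibroblasts, by 0.86 ± 0.20. Smaller falls that passed were those of Col6a1 (-0.67), Loxl2 (-0.64), Col1a2 (-0.60), Col6a2 (-0.57) and the proteoglycan gene Dcn (-0.54). The other probes of Loxl2 gave 0.17 and -0.01, neither called, so its direction rests on 1 of 3 probes. Bgn, which encodes the proteoglycan biglycan, was the 1 stromal gene that rose, by 0.35 ± 0.13. Fap, Postn, Col5a2, Fbn1, Lum and Dpt were not called, with differences of 0.43, 0.17, 0.08, 0.03, -0.08 and -0.94.

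Markers of several cell types moved with the fraction. Of the endothelial markers 16 of 17 were called higher in EC, with Pecam1 at 2.88 and Cdh5 at 6.03, as were 11 of 12 mural markers, with Rgs5 at 2.60, and 9 of 9 macrophage markers, whose mean level was 2.97 to 5.78 in EC against 0.34 to 2.78 in bulk. Of the tumour epithelial markers 12 of 12 were lower in EC, with Krt8 at -1.52. Of the 15 fibroblast markers outside the matrix 2 were higher and 6 lower, with Pdgfra at -0.95, and their mean level was -0.30 to 0.69 in EC against -0.54 to 0.71 in bulk. The part of mural, macrophage or other cells in the matrix differences was not tested, and fewer cells of a type and less RNA per cell cannot be told apart in such samples.

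**Figure D1:**
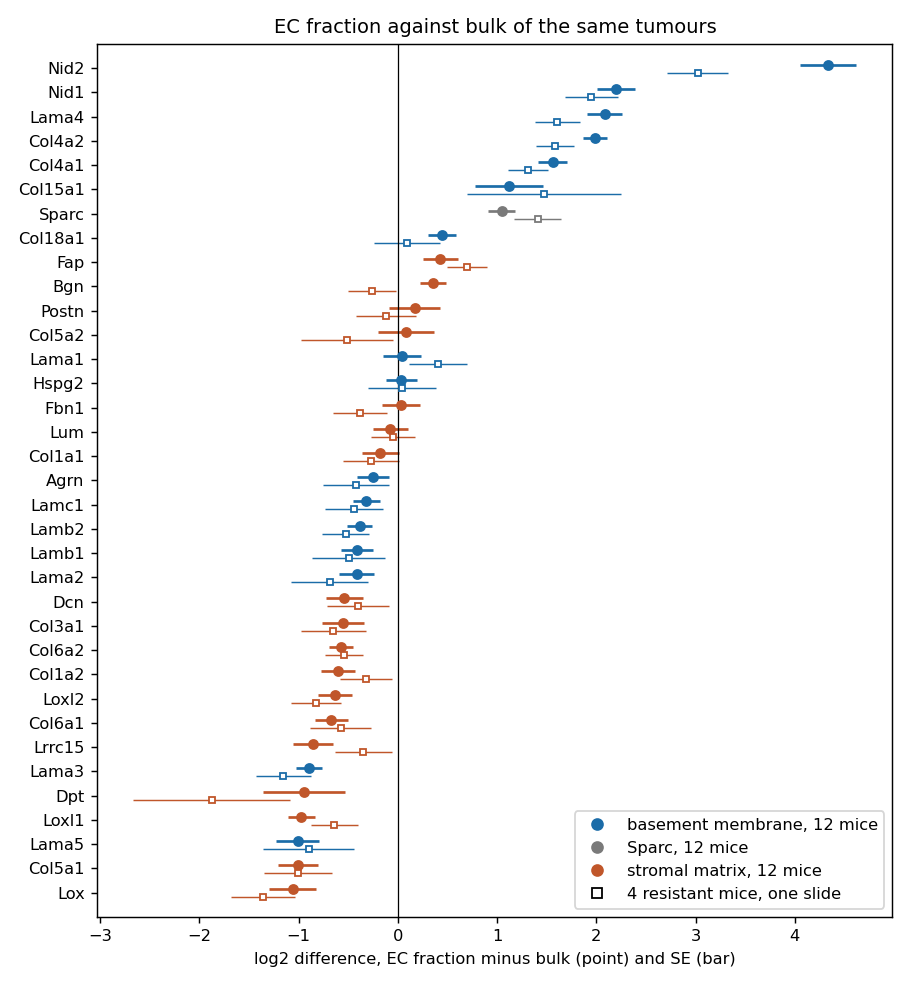
Log2 difference of each member between the EC fraction and bulk of the same tumours, with SE bars, over 12 mice (filled circles) and in the 4 resistant mice whose arrays shared 1 slide (open squares); blue marks basement membrane genes, orange stromal genes and grey Sparc. Nid2, Nid1, Lama4, Col4a2 and Col4a1 lie at 1.56 or higher over 12 mice, and the stromal genes lie between -1.06 and 0.43.

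Only the resistant mice had both fractions on 1 slide. In these 4 mice 8 of 35 members passed the test, 6 higher and 2 lower, against 15% of all genes tested, of which 8.68% were higher and 6.34% lower, and in sensitive and vehicle mice fraction and slide cannot be told apart. Nid2 had levels of 2.10, 1.23, 1.41 and 1.38 in EC of resistant mice 1 to 4, against -1.57, -0.81, -1.68 and -1.91 in their bulk, and rose by 3.02 ± 0.30 (limma adjusted p 0.00808). Nid1 had 3.46, 2.12, 2.30 and 2.94 in EC, against 1.40, -0.53, 1.00 and 1.15 in bulk, and rose by 1.95 ± 0.27 (limma adjusted p 0.0163). These EC values lay above all 4 bulk values of the same gene.

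Lama4 rose by 1.61 ± 0.23, Col4a2 by 1.58 ± 0.19, Col4a1 by 1.31 ± 0.21 and Sparc by 1.41 ± 0.23, and the EC and bulk values of each did not overlap in these mice. Lama3 had -0.22, -0.72, -0.96 and -1.49 in EC, against 0.36, -0.02, 0.73 and 0.15 in bulk, and fell by 1.15 ± 0.28 (limma adjusted p 0.0439). Lox had -0.76, -3.68, -2.33 and -0.73 in EC, against -0.47, -1.60, -0.76 and 0.76 in bulk, and fell by 1.36 ± 0.32 (limma adjusted p 0.043). EC and bulk values of Lox overlapped between mice, although in each mouse EC was lower. Col1a1 and Col3a1 gave -0.27 ± 0.28 and -0.65 ± 0.33, not called. Bgn, higher over all mice, gave -0.26 ± 0.24 here and was not called. With 3 mice left, 4 were called without resistant mouse 4 (4.42% of all genes tested) and 2, Nid1 and Nid2, without resistant mouse 3 (1.42%).

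Within mice, 6 members were higher in EC in all 12 (Col4a1, Col4a2, Lama4, Nid1, Nid2 and Sparc) and 2 were lower in all 12 (Lama3 and Loxl1). The share of all genes with 1 direction in all 12 mice was not computed, and 52% of all genes tested were called. These counts therefore have no background and describe the named members only. The smallest Nid2 difference came from vehicle mouse 3, at 1.41, and vehicle mice 2, 4 and 5 had 4.87, 4.97 and 4.11. Without that mouse, or any other single mouse, the count of members called over all mice stayed between 18 and 24, with 46.9% to 65.4% of all genes tested called.

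**Figure D2:**
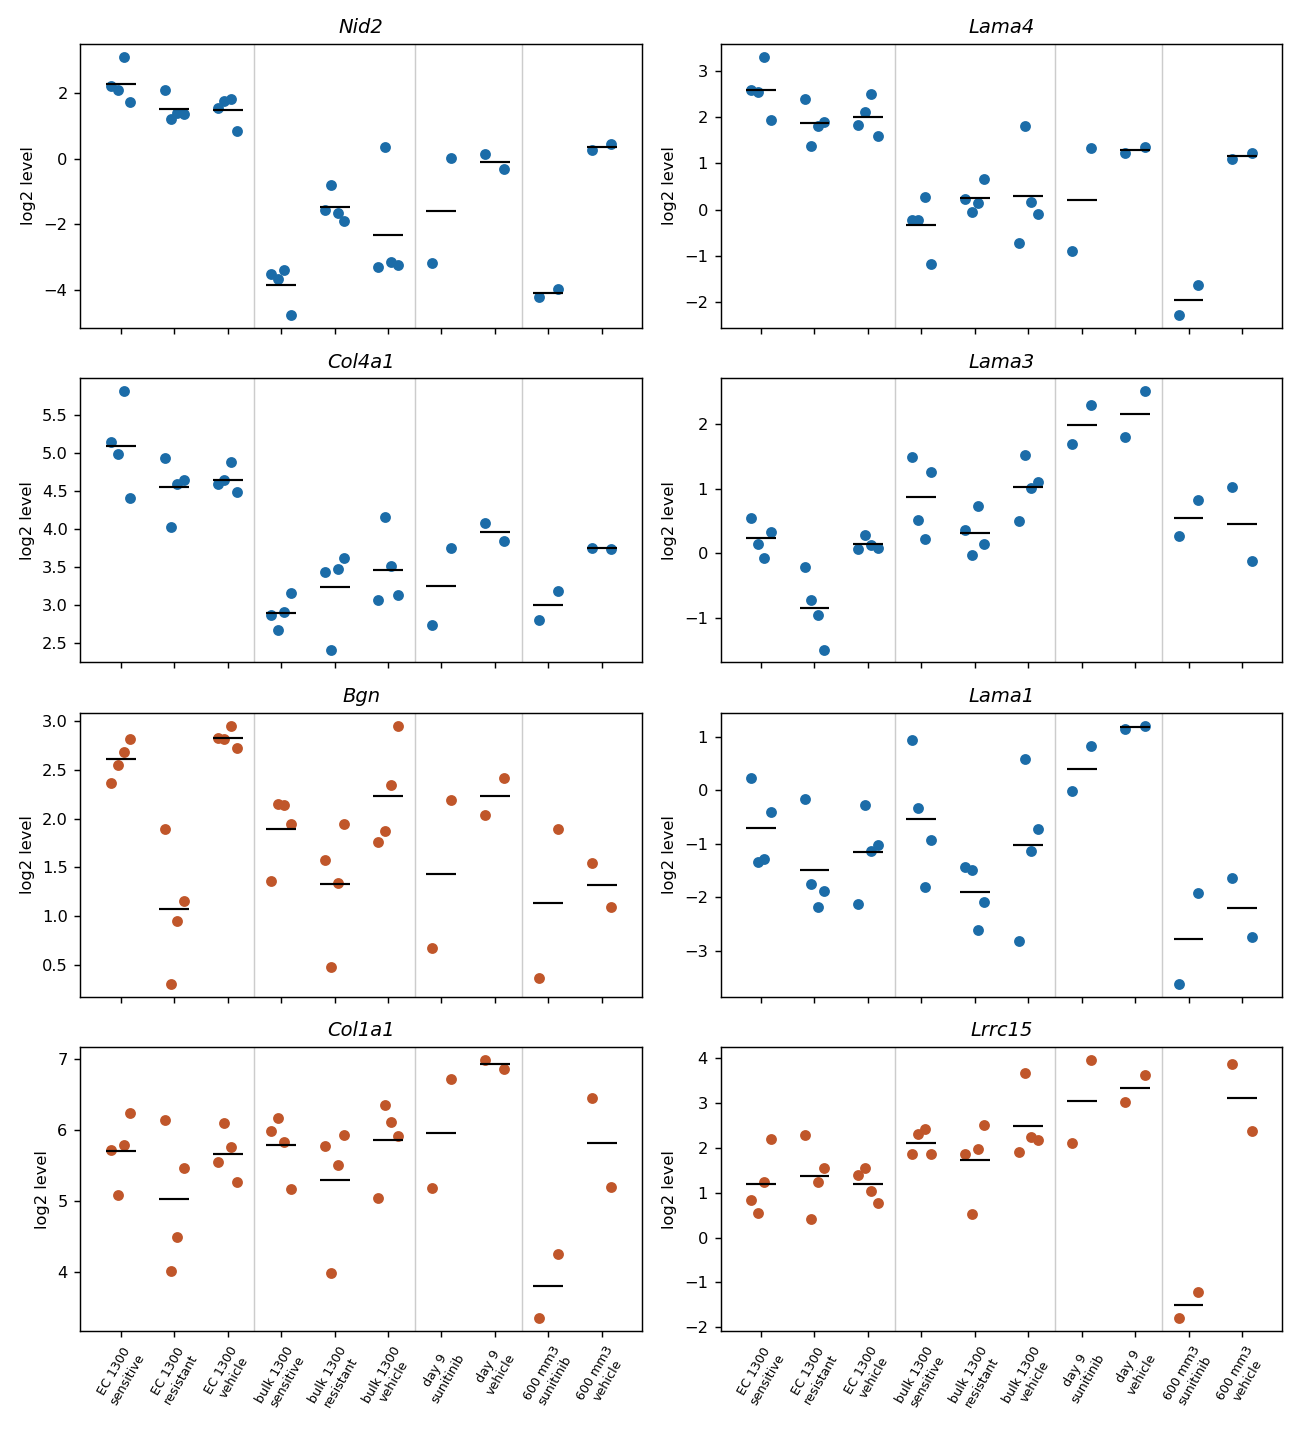
Log2 level of 8 members on each of the 32 arrays, in the 10 groups, with the group mean as a bar; grey lines part EC, bulk at 1300 mm3, day 9 and 600 mm3. Nid2, Lama4 and Col4a1 have their highest group means on EC arrays, bulk vehicle mouse 3 lies with the smaller vehicle tumours for Nid2 at 0.37, and the 600 mm3 sunitinib tumours are lowest for Lrrc15 at -1.80 and -1.22.

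The other genes of the matrix, from lists of relatives, receptors and collagen-processing enzymes, moved in both directions. Of 24 other basement membrane genes measured 3 rose and 11 fell: Vwa1, a perlecan-binding protein, rose by 3.12 ± 0.25, Pxdn, which cross-links collagen IV, rose by 1.47 ± 0.15, and Npnt, an integrin ligand of epithelial basement membranes, fell by 1.52 ± 0.17. Of 14 matrix receptors 3 rose and 9 fell, led by the laminin receptor subunits Itga3 (-1.72 ± 0.16) and Itgb4 (-1.28 ± 0.20) and the collagen uptake receptor Mrc2 (-1.21 ± 0.26). Of 21 genes of collagen folding and processing 2 rose and 11 fell, with Fkbp10, a collagen chaperone, at 1.58 ± 0.18, Pcolce2, an enhancer of procollagen cleavage, at -1.46 ± 0.21 and Loxl4 at -1.38 ± 0.14. Of 25 other stromal genes 3 rose and 7 fell, with the elastic fibre genes Fbln5 at 3.03 ± 0.19 and Efemp2 at -1.26 ± 0.13 and the collagen gene Col14a1 at 1.99 ± 0.27. The share called lower in the last list is near the 29.7% of all genes.

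The basement membrane and the stromal genes were set against each other on each array by the difference of their mean levels. That difference was 0.44 to 1.57 on the 12 EC arrays with a median of 0.66. It was -0.78 to 0.43 on the 12 bulk arrays at 1300 mm3 with a median of -0.28. The fractions did not overlap but nearly met, at 0.439 for EC vehicle mouse 2 and 0.435 for bulk resistant mouse 2. In the smaller tumours the difference of the means ranged from -1.04 to 0.98. The basement membrane mean alone was 1.99 to 3.12 in EC, against 1.44 to 2.67 in bulk at 1300 mm3. The stromal mean alone was 0.42 to 2.29 in EC, against 1.04 to 2.87 in bulk, and overlapped.

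**Figure D3:**
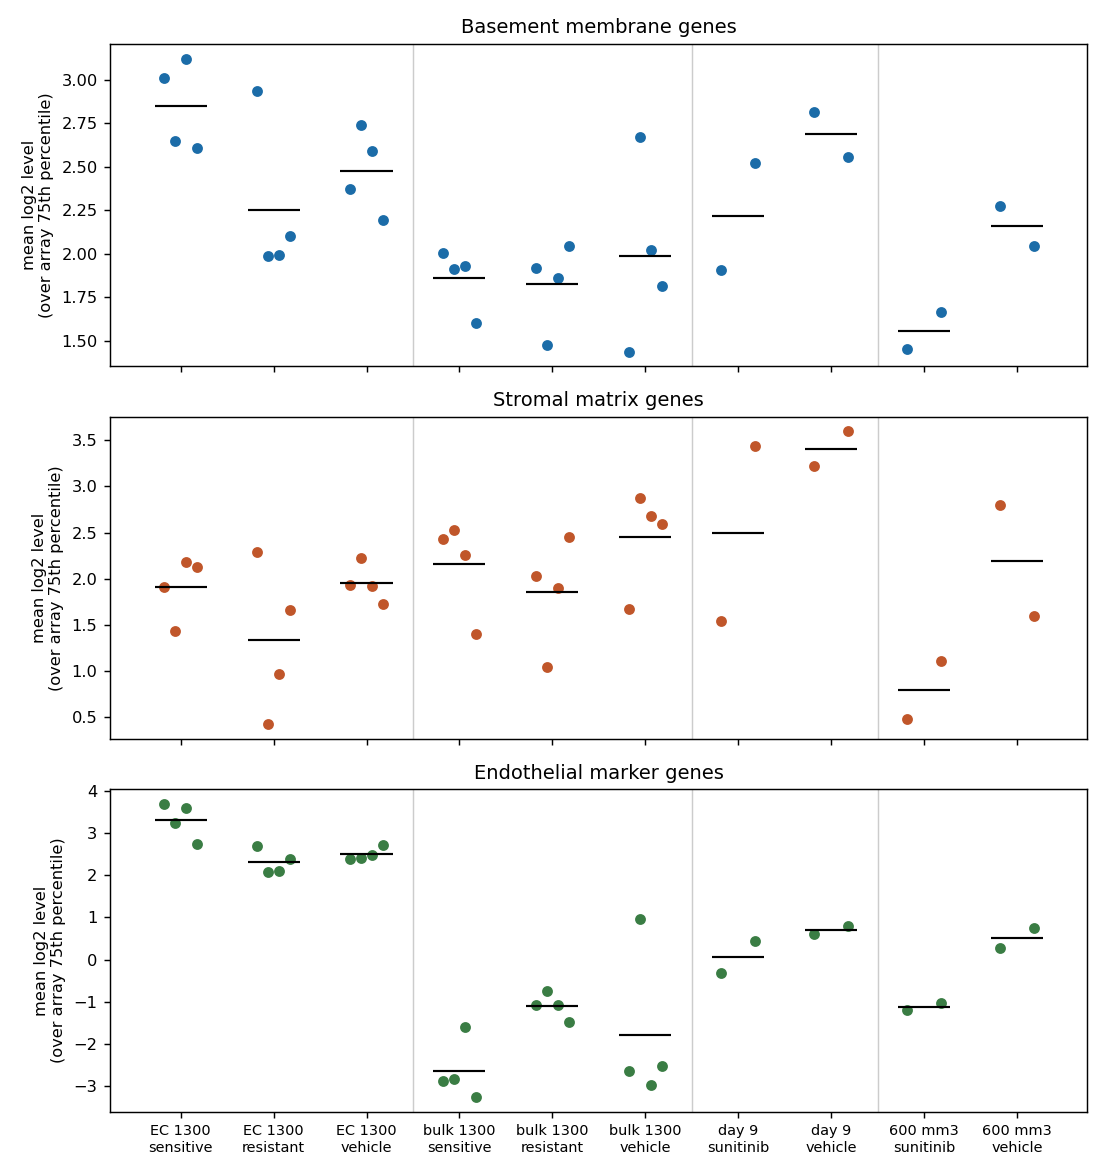
Mean log2 level on each array of the 16 basement membrane genes (top), the 18 stromal genes (middle) and the 17 endothelial markers (bottom) in the 10 groups, with group means as bars. The endothelial mean is 2.08 to 3.69 in EC, bulk vehicle mouse 3 stands at 0.96, and the stromal mean is 0.48 and 1.11 in the 600 mm3 sunitinib tumours.

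The second comparison asks what sunitinib did in the smaller tumours. The 4 sunitinib arrays had lower mean levels than the 4 vehicle arrays for all 18 stromal genes and for 10 of 16 basement membrane genes, but none of the 35 members passed the test, against 0% of all genes tested, of which 1750 had an unadjusted p under 0.05. The median log2 difference, with size as a term of the model, was -1.19 over the stromal genes and -0.28 over the basement membrane genes, beside 0.04 over all genes tested. The model had 4 residual degrees of freedom.

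Nid2 had levels of -3.18 and 0.01 in sunitinib tumours at day 9, against 0.13 and -0.31 in vehicle tumours, and -4.22 and -3.99 in sunitinib tumours at 600 mm3, against 0.26 and 0.46 in vehicle tumours. The difference was -2.98 ± 0.63 (limma adjusted p 0.172). Lama4 had -0.90 and 1.33 in sunitinib tumours at day 9, against 1.22 and 1.35 in vehicle tumours, and -2.28 and -1.64 in sunitinib tumours at 600 mm3, against 1.08 and 1.21 in vehicle tumours. Its difference was -2.09 ± 0.46 (limma adjusted p 0.188). For both genes the 600 mm3 groups were far apart, whereas at day 9 sunitinib mouse 1 was low and mouse 2 lay among or near the vehicle values.

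Lrrc15 had 2.11 and 3.95 in sunitinib tumours at day 9, against 3.02 and 3.62 in vehicle tumours, and -1.80 and -1.22 in sunitinib tumours at 600 mm3, against 3.86 and 2.37 in vehicle tumours. Its difference was -2.46 ± 0.49 (limma adjusted p 0.162). Col1a1 had 5.18 and 6.71 in sunitinib tumours at day 9, against 6.98 and 6.86 in vehicle tumours, and 3.34 and 4.25 in sunitinib tumours at 600 mm3, against 6.44 and 5.19 in vehicle tumours (-1.50 ± 0.43, limma adjusted p 0.274). Both genes had separate groups at 600 mm3 and overlapping or near groups at day 9. Col3a1 gave -1.15 ± 0.43, Loxl2 -1.72 ± 0.54, Col5a2 -1.69 ± 0.42 and Fbn1, which encodes fibrillin-1, -1.61 ± 0.57, none called. The collagen IV genes moved less, with 2.73 and 3.76 for Col4a1 in sunitinib tumours at day 9, against 4.08 and 3.85 in vehicle tumours, and 2.81 and 3.18 at 600 mm3, against 3.75 and 3.73 in vehicle tumours (-0.73 ± 0.25). Col4a2 gave -0.65 ± 0.20 and Sparc -0.79 ± 0.22, none called.

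Col4a2 had 2.86 and 3.44 in sunitinib tumours at day 9, against 4.10 and 3.73 in vehicle tumours, and 2.78 and 2.96 in sunitinib tumours at 600 mm3, against 3.23 and 3.58 in vehicle tumours. Sparc had 7.19 and 7.84 in sunitinib tumours at day 9, against 8.28 and 8.22 in vehicle tumours, and 6.37 and 7.05 in sunitinib tumours at 600 mm3, against 7.61 and 7.48 in vehicle tumours. Col3a1 had 5.35 and 6.86 in sunitinib tumours at day 9, against 6.77 and 7.05 in vehicle tumours, and 3.75 and 4.56 in sunitinib tumours at 600 mm3, against 6.28 and 5.03 in vehicle tumours. At 600 mm3 the sunitinib values of all 3 lay below the vehicle values. Loxl2 had 0.62 and 2.36 in sunitinib tumours at day 9, against 2.49 and 2.53 in vehicle tumours, and -2.07 and -0.38 in sunitinib tumours at 600 mm3, against 1.83 and 0.54 in vehicle tumours. Col5a2 had -1.27 and 0.64 in sunitinib tumours at day 9, against 0.58 and 0.53 in vehicle tumours, and -3.09 and -2.68 in sunitinib tumours at 600 mm3, against -0.02 and -0.73 in vehicle tumours. For these 2 the 600 mm3 groups were also apart.

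By size, with no test at 2 arrays a group, the median sunitinib minus vehicle difference of the stromal genes was -0.92 at day 9 and -1.43 at 600 mm3. It was below 0 for 18 of 18 stromal genes at day 9 and 15 of 18 at 600 mm3. For the basement membrane genes the medians were -0.35 and -0.02. Stromal mean levels of the day 9 sunitinib mice were 1.54 and 3.44, against 3.22 and 3.60 in vehicle mice, and the low day 9 value was that of mouse 1. Without sunitinib mouse 2 of day 9 the test called 5 members lower (Nid2, Lrrc15, Lama4, Col5a2 and Nid1), against 1.15% of all genes tested, and without any other single array it called none (at most 0.00573%).

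Other markers moved with these levels, none called. The endothelial mean was -0.33 and 0.45 in sunitinib tumours at day 9, against 0.61 and 0.80 in vehicle tumours, and -1.20 and -1.04 in sunitinib tumours at 600 mm3, against 0.27 and 0.76 in vehicle tumours. The mural mean was -1.93 and -1.78 in sunitinib tumours at 600 mm3, against -0.31 and -0.21 in vehicle tumours. Differences were negative for 17 of 17 endothelial, 11 of 12 mural, 9 of 9 macrophage and 10 of 15 fibroblast markers, and for 7 of 12 epithelial markers, with Cdh5 at -1.70, Rgs5 at -2.07, Pecam1 at -0.81, Pdgfra at -0.10 and Krt8 at -0.02. Their part in the matrix differences was not tested. Of the 25 other stromal genes 23 had negative differences, with a median of -0.99, and of the 22 other basement membrane genes 12 did, with a median of -0.04.

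The third comparison sets tumours of 600 mm3 against those of day 9, with treatment as a term. Laminin alpha 1 and alpha 3, lysyl oxidase and Lrrc15 fell in the 600 mm3 tumours. These 4 of 35 members were called, all lower, against 4.37% of all genes tested called in either direction, with 1.6% called higher and 2.77% lower. All 18 stromal genes had negative differences, with a median of -1.53, beside -0.26 over the basement membrane genes and 0.08 over all genes tested. Levels of Lama1, a laminin alpha chain of embryonic and some epithelial basement membranes, were -3.62 and -1.92 in sunitinib and -1.64 and -2.74 in vehicle tumours at 600 mm3, against -0.01 and 0.82 in sunitinib and 1.15 and 1.21 in vehicle tumours at day 9. The sizes did not overlap, and the difference was -3.28 ± 0.44 (limma adjusted p 0.0144).

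Lox had -1.78 and -0.94 in sunitinib and -0.66 and -2.22 in vehicle tumours at 600 mm3, against -0.20 and 1.43 in sunitinib and 1.36 and 1.87 in vehicle tumours at day 9, a difference of -2.51 ± 0.48 (limma adjusted p 0.0395). Again the sizes did not overlap. Lrrc15 fell by 2.38 ± 0.49 (limma adjusted p 0.0484), but its 600 mm3 vehicle levels of 3.86 and 2.37 lay among the day 9 levels of 2.11 to 3.95, and its low values were those of the sunitinib tumours. Lama3 had 0.27 and 0.82 in sunitinib and 1.02 and -0.13 in vehicle tumours at 600 mm3, against 1.69 and 2.29 in sunitinib and 1.81 and 2.51 in vehicle tumours at day 9, a difference of -1.58 ± 0.32 (limma adjusted p 0.0472). Col1a1 gave -1.63 ± 0.43, Col3a1 -1.60 ± 0.43, Lama4 -1.16 ± 0.46, Sparc -0.76 ± 0.22, Col4a2 -0.40 ± 0.20 and Col4a1 -0.23 ± 0.25, none called.

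The count was sensitive to single arrays. It was 13 without sunitinib mouse 1 of day 9, with Nid1, Nid2, Lama4, Col1a1 and Col3a1 among those then called, against 4.87% of all genes tested, 2 without sunitinib mouse 2 of day 9 (2.4%), and 0 without vehicle mouse 4 of 600 mm3 (0.975%). It was 1, Lama1, without any of the other arrays: day 9 vehicle mice 1 and 2, 600 mm3 sunitinib mice 3 and 4, and 600 mm3 vehicle mouse 3 (1.22% to 4.56%). Of the other stromal genes Tnc (tenascin-C, -2.88 ± 0.45) and Vcan (versican, -2.25 ± 0.38) fell, and of the other basement membrane genes Col8a2 (-2.21 ± 0.33), Fbln1 (-1.71 ± 0.32) and Lamb3 (-1.40 ± 0.27) fell and 1 rose. The laminin beta 3 chain of Lamb3 is a partner of the alpha 3 chain. Of the markers 6 of 12 mural and 4 of 15 fibroblast genes fell, as did 1 of 17 endothelial genes, and 0 epithelial genes were called. Adipocyte markers were lower in 9 of 10 cases with a median of -1.53, 0 of them called. Their part in the matrix differences was not tested.

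The fourth set of comparisons is within the EC fraction at 1300 mm3. In sensitive against vehicle mice none of the 35 members was called, against 0% of all genes tested, of which 980 had an unadjusted p under 0.05. Of the basement membrane genes 15 of 16 had positive differences, with a median of 0.40, against 7 of 18 stromal genes with a median of -0.04, beside a median of 0.02 over all genes tested. The greatest were Nid2, with 2.23, 2.09, 3.11 and 1.74 in sensitive mice, against 1.56, 1.77, 1.81 and 0.84 in vehicle mice (0.80 ± 0.31, limma adjusted p 0.827), and Nid1, with 3.61, 3.46, 4.18 and 3.04 in sensitive mice, against 3.02, 2.80, 2.93 and 2.53 in vehicle mice (0.75 ± 0.30, limma adjusted p 0.827). For Nid1 every sensitive value was above every vehicle value, and for Nid2 they overlapped.

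Lama4 gave 0.59 ± 0.30, Col18a1 0.57 ± 0.22, Col4a2 0.54 ± 0.27, Col15a1 0.54 ± 0.24, Col4a1 0.44 ± 0.27 and Sparc 0.34 ± 0.17, none called. Col4a2 had 5.57, 5.26, 5.99 and 4.72 in sensitive mice, against 4.74, 4.87, 5.04 and 4.72 in vehicle mice, and sensitive mouse 5 lay among the vehicle values. Col1a1 and Col3a1 gave 0.04 ± 0.41 and -0.13 ± 0.42. The endothelial mean level was 2.74 to 3.69 in sensitive mice, against 2.38 to 2.73 in vehicle mice, and the mural mean was 1.04 to 1.98 in sensitive against 0.83 to 1.09 in vehicle mice. Differences were positive for 17 of 17 endothelial markers (median 0.88) and 12 of 12 mural markers (0.38) and negative for 11 of 12 epithelial markers (-0.46), none called. Their part in the basement membrane values was not tested.

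The genes that were followed throughout had these levels on the EC arrays. Col4a1 had 5.15, 4.98, 5.81 and 4.41 in sensitive mice and 4.94, 4.02, 4.59 and 4.64 in resistant mice, against 4.59, 4.64, 4.88 and 4.49 in vehicle mice. Lama4 had 2.58, 2.53, 3.30 and 1.94 in sensitive mice and 2.38, 1.36, 1.81 and 1.88 in resistant mice, against 1.82, 2.10, 2.49 and 1.58 in vehicle mice. Sparc had 8.54, 8.59, 8.93 and 8.47 in sensitive mice and 8.75, 8.49, 8.28 and 8.37 in resistant mice, against 8.54, 8.31, 8.34 and 7.97 in vehicle mice. In each of the 3 the highest value was that of sensitive mouse 4, and the groups overlapped. Col1a1 had 5.71, 5.08, 5.78 and 6.24 in sensitive mice and 6.14, 4.01, 4.49 and 5.46 in resistant mice, against 5.54, 6.09, 5.76 and 5.26 in vehicle mice. Col3a1 had 5.33, 4.33, 5.25 and 5.31 in sensitive mice and 5.72, 3.47, 4.21 and 5.02 in resistant mice, against 5.06, 5.62, 5.27 and 4.78 in vehicle mice. Resistant mouse 2 was the lowest for both collagens, and the groups overlapped.

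In resistant against vehicle mice 4 of 35 members were called in the EC fraction, all lower, against 46.3% of all genes tested called in either direction, with 19.2% higher and 27.1% lower. The share of members called lay below that background. Bgn had 1.89, 0.30, 0.95 and 1.15 in resistant mice, against 2.83, 2.82, 2.95 and 2.73 in vehicle mice, and fell by 1.76 ± 0.27 (limma adjusted p 0.000178). Every resistant value was below every vehicle value. Col6a2, a chain of collagen VI, had 1.34, -0.45, 0.58 and 0.95 in resistant mice, against 1.55, 1.92, 1.77 and 1.56 in vehicle mice, and fell by 1.09 ± 0.33 (limma adjusted p 0.0165). Lama3 had -0.22, -0.72, -0.96 and -1.49 in resistant mice, against 0.06, 0.28, 0.12 and 0.08 in vehicle mice, and fell by 0.98 ± 0.24 (limma adjusted p 0.00517). Neither overlapped, but another Lama3 probe gave -0.13 ± 0.33, not called.

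Dpt, which encodes dermatopontin, had -4.33, -6.10, -6.39 and -5.93 in resistant mice, against -4.17, -4.84, -4.46 and -3.23 in vehicle mice, and fell by 1.51 ± 0.48 (limma adjusted p 0.0226). It was the faintest of the members, well above background on 27 of 32 arrays, and its fall turned to 0.33 with another background correction. Stromal genes had negative differences in 17 of 18 cases with a median of -0.55, and basement membrane genes in 11 of 16 with a median of -0.13, beside 0.03 over all genes tested. Col4a2 gave -0.57 ± 0.27, Col4a1 -0.10 ± 0.27, Lama4 -0.14 ± 0.30, Sparc 0.18 ± 0.17, Col1a1 -0.64 ± 0.41 and Col3a1 -0.58 ± 0.42, none called. Another probe of Sparc fell by 0.59 ± 0.20, and another of Agrn, whose brightest probe gave 0.19 ± 0.30, fell by 1.64 ± 0.17.

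Resistant mouse 1 had the highest levels of the 4 resistant mice in the EC fraction, with Col1a1 at 6.14 against 4.01, 4.49 and 5.46, a stromal mean of 2.29 against 0.42, 0.96 and 1.66, and a basement membrane mean of 2.93 against 1.99, 1.99 and 2.10. Without it 14 members were called lower, against 51.1% of all genes tested called in either direction, among them Col1a1, Col3a1, Col5a2, Col6a1, Fbn1, Loxl2, Fap, Col4a2, Lama2 and Lamb2 beside the 4 above. Of the other basement membrane genes 6 of 22 fell, led by Frem2 (-2.42 ± 0.25), Col4a4 (-2.27 ± 0.17) and Col4a6 (-2.01 ± 0.19), and the last pair encode collagen IV chains of narrower distribution. P4ha3, a collagen prolyl hydroxylase subunit, gave -2.36 ± 0.16 and Fmod, the proteoglycan fibromodulin, -2.15 ± 0.25, both called. The mural mean was -0.43 to 0.82 in resistant mice, against 0.83 to 1.09 in vehicle mice, with 7 of 12 markers called lower and Rgs5 at -1.13. Macrophage markers were higher in 9 of 9 cases, 3 of them called. Adipocyte markers were lower in 9 of 10 cases with a median of -1.63, 5 of them called, and their mean level was -3.40 to -2.79 in resistant mice, against -2.01 to 0.0003 in vehicle mice. The part of these cells in the matrix differences was not tested. Resistance, slide and the lower share of detected probes cannot be told apart here. Among all called genes 41.4% were higher, and this share was 72.9% with normexp background correction, 50.0% with quantile normalization and 51.6% in the deposited values.

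Resistant against sensitive mice gave the largest number of changed basement membrane genes within the EC fraction. Here 9 of 35 members were called, all lower, against 46% of all genes tested called in either direction, with 17.2% higher and 28.8% lower. They were 6 of 16 basement membrane genes and 3 of 18 stromal genes. In both lists the share called lay below the 46% of all genes. Col4a2 had 4.73, 3.76, 4.19 and 4.42 in resistant mice, against 5.57, 5.26, 5.99 and 4.72 in sensitive mice, and fell by 1.11 ± 0.27 (limma adjusted p 0.00501). Nid1 had 3.46, 2.12, 2.30 and 2.94 in resistant mice, against 3.61, 3.46, 4.18 and 3.04 in sensitive mice, and fell by 0.87 ± 0.30 (limma adjusted p 0.0351). Values of resistant mouse 1 overlapped with the sensitive group for both.

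Lama3 fell by 1.08 ± 0.24, Col15a1 and Hspg2 by 0.68 ± 0.24 and 0.68 ± 0.25, and Lamb2 by 0.66 ± 0.23. The fall of Col15a1 depended on the normalization: with quantile normalization it gave 0.0285 (limma adjusted p 0.933), and against vehicle mice it was then called higher, at 0.69 (limma adjusted p 0.0337). Among stromal genes Dpt fell by 1.61 ± 0.48, Bgn by 1.53 ± 0.27 and Col6a2 by 1.00 ± 0.33, with the resistant values of Dpt and Bgn listed above against -3.18, -4.32, -4.12 and -4.70 for Dpt and 2.37, 2.56, 2.69 and 2.82 for Bgn in sensitive mice. Col4a1 (-0.54 ± 0.27), Lama4 (-0.73 ± 0.30), Nid2 (-0.76 ± 0.31), Sparc (-0.16 ± 0.17), Col1a1 (-0.68 ± 0.41) and Col3a1 (-0.45 ± 0.42) were not called. The median was -0.68 over basement membrane genes and -0.48 over stromal genes, beside 0.03 over all genes tested. Other Nid1 probes gave 0.13 and -1.01, not called, and another Sparc probe fell by 1.15 ± 0.20.

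Mice of these treatments are different animals. Deviations of same-numbered resistant and sensitive EC arrays from their group means correlated at 0.10, 0.32 and 0.18 for numbers 2, 3 and 4. Only genes detected well above background on many of the arrays entered. The same-numbered sensitive array was the best match only for number 3, so the numbers give no clear pairing. With mouse number as a block 20 members were called, all lower, against 46.9% of all genes tested, and these included the 9 and also Col4a1, Lama4, Nid2 and Lamc1. Number 1 exists only among resistant mice here, so the block also takes that mouse out of the contrast, and the effects of the block and of leaving it out cannot be told apart. The count depended on resistant mouse 1 (19 without it, against 51% of all genes tested), sensitive mice 2 and 4 (3 and 4 without them) and resistant mice 2 and 3 (5 and 3 without them), with 36.6% to 42.8% of all genes tested called in these 4 fits. Col4a2, Lama3 and Bgn were among those called in each of these 5 fits. Endothelial markers were lower in 17 of 17 cases with 15 called, among them Pecam1 at -1.22 and Cdh5 at -0.72, and mural markers in 12 of 12 with 11 called. Adipocyte markers were lower in 9 of 10 cases with 5 called (median -1.46), and their mean was -3.40 to -2.79 in resistant mice, against -1.46 to -1.09 in sensitive mice. Epithelial markers were higher in 12 of 12 cases (median 0.52, 0 called) and macrophage markers in 9 of 9 (median 1.03, 1 called). Their part in the matrix differences was not tested. Of the other basement membrane genes 10 of 22 fell, led by Col4a4 (-2.21 ± 0.17), Frem2 (-2.04 ± 0.25) and Col4a6 (-2.00 ± 0.19). Among all called genes 37.4% were higher, against 66.4% with normexp, 45.9% with quantile normalization and 47.5% in the deposited values. With normexp the median of all genes was 0.24 against vehicle and 0.23 against sensitive mice, beside 0.03 in each without it, and Dpt gave 0.24 in this comparison.

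The fifth set is within bulk at 1300 mm3. None of the 35 members was called in sensitive against vehicle mice (0% of all genes tested, with 1101 at an unadjusted p under 0.05), in resistant against vehicle mice (8.01% of all genes tested) or in resistant against sensitive mice (12.3% of all genes tested). Nid2 had -3.52, -3.69, -3.42 and -4.78 in sensitive mice and -1.57, -0.81, -1.68 and -1.91 in resistant mice, against -3.31, 0.37, -3.16 and -3.26 in vehicle mice. The resistant values lay above every sensitive value, and the vehicle values above every sensitive value too, with mouse 3 the highest of all. The differences were 2.36 ± 0.74 for resistant against sensitive (limma adjusted p 0.0622), 0.85 ± 0.74 for resistant against vehicle and -1.51 ± 0.74 for sensitive against vehicle. Without bulk vehicle mouse 3, Nid2 was called higher in resistant mice both against vehicle (1.75) and against sensitive (2.36) mice, where 7.01% and 12.4% of all genes tested were called. Endothelial markers had medians of 1.41 for resistant against sensitive (14 of 17 positive, 1 called higher and 1 lower), 0.61 for resistant against vehicle (14 of 17 positive, 1 called lower) and -0.90 for sensitive against vehicle (14 of 17 negative, 0 called). Their part in the Nid2 values was not tested.

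Col6a2 had 2.05, 2.34, 2.42 and 1.58 in sensitive mice and 1.62, 0.29, 1.06 and 1.62 in resistant mice, against 1.62, 2.75, 2.63 and 2.51 in vehicle mice. Its difference of -1.23 ± 0.35 for resistant against vehicle was close to the threshold (limma adjusted p 0.0566). Stromal genes had negative differences in 18 of 18 cases in resistant against vehicle mice (median -0.56, beside 0.03 over all genes tested), in 14 of 18 in sensitive against vehicle mice (median -0.33, beside 0.07) and in 13 of 18 in resistant against sensitive mice (median -0.36, beside -0.04). Basement membrane medians in the same order were -0.25, 0.01 and -0.03. Mural markers were negative in 11 of 12 cases in resistant against vehicle mice (median -0.64), in 9 of 12 in sensitive against vehicle mice (-0.21) and in 9 of 12 in resistant against sensitive mice (-0.65), none called. Their part in the stromal values was not tested. Without the bulk array of resistant mouse 2 the basement membrane median of resistant against sensitive became 0.34, and the stromal median of resistant against vehicle -0.17.

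Col1a1 had 5.98, 6.16, 5.83 and 5.16 in sensitive mice and 5.77, 3.98, 5.51 and 5.92 in resistant mice, against 5.03, 6.34, 6.12 and 5.91 in vehicle mice. Resistant mouse 2 was the lowest, and the groups overlapped. Col4a1 had 2.86, 2.67, 2.91 and 3.15 in sensitive mice and 3.44, 2.41, 3.47 and 3.62 in resistant mice, against 3.07, 4.15, 3.51 and 3.13 in vehicle mice, with mouse 3 the highest. Col4a2 had 2.60, 2.76, 2.97 and 2.83 in sensitive mice and 2.92, 2.09, 2.77 and 3.00 in resistant mice, against 2.76, 3.78, 2.99 and 2.69 in vehicle mice. Lama4 had -0.23, -0.23, 0.26 and -1.18 in sensitive mice and 0.23, -0.04, 0.15 and 0.67 in resistant mice, against -0.72, 1.80, 0.16 and -0.10 in vehicle mice. In both the highest value was that of vehicle mouse 3. Sparc had 7.68, 8.09, 8.15 and 7.27 in sensitive mice and 7.37, 6.49, 7.28 and 7.12 in resistant mice, against 6.86, 8.20, 7.31 and 7.19 in vehicle mice. Col3a1 had 6.02, 5.69, 5.25 and 4.41 in sensitive mice and 5.53, 3.66, 5.65 and 6.18 in resistant mice, against 4.93, 6.59, 6.30 and 5.77 in vehicle mice. The groups overlapped in both.

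Lama4 gave -0.63 ± 0.48 for sensitive and -0.03 ± 0.48 for resistant against vehicle, and Fap, a protease of activated fibroblasts, -0.21 ± 0.42 and -1.02 ± 0.42. Without the array of resistant mouse 2, 3 members were called against vehicle mice (Col15a1 at -1.80, Col6a2 at -0.94 and Agrn at 0.71, against 32.6% of all genes tested) and 2 against sensitive mice (Col15a1 at -2.12 and Agrn at 0.59, against 37.7%). Of the other matrix genes Col4a6 fell in resistant mice by 1.97 ± 0.44 against vehicle and 2.62 ± 0.44 against sensitive mice, Fmod by 1.79 ± 0.38 and 1.52 ± 0.38, and P3h1, which modifies collagen prolines, by 0.60 ± 0.14 and 0.94 ± 0.14. The slides of resistant and other mice differed, and slide and group cannot be told apart.

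**Figure D4:**
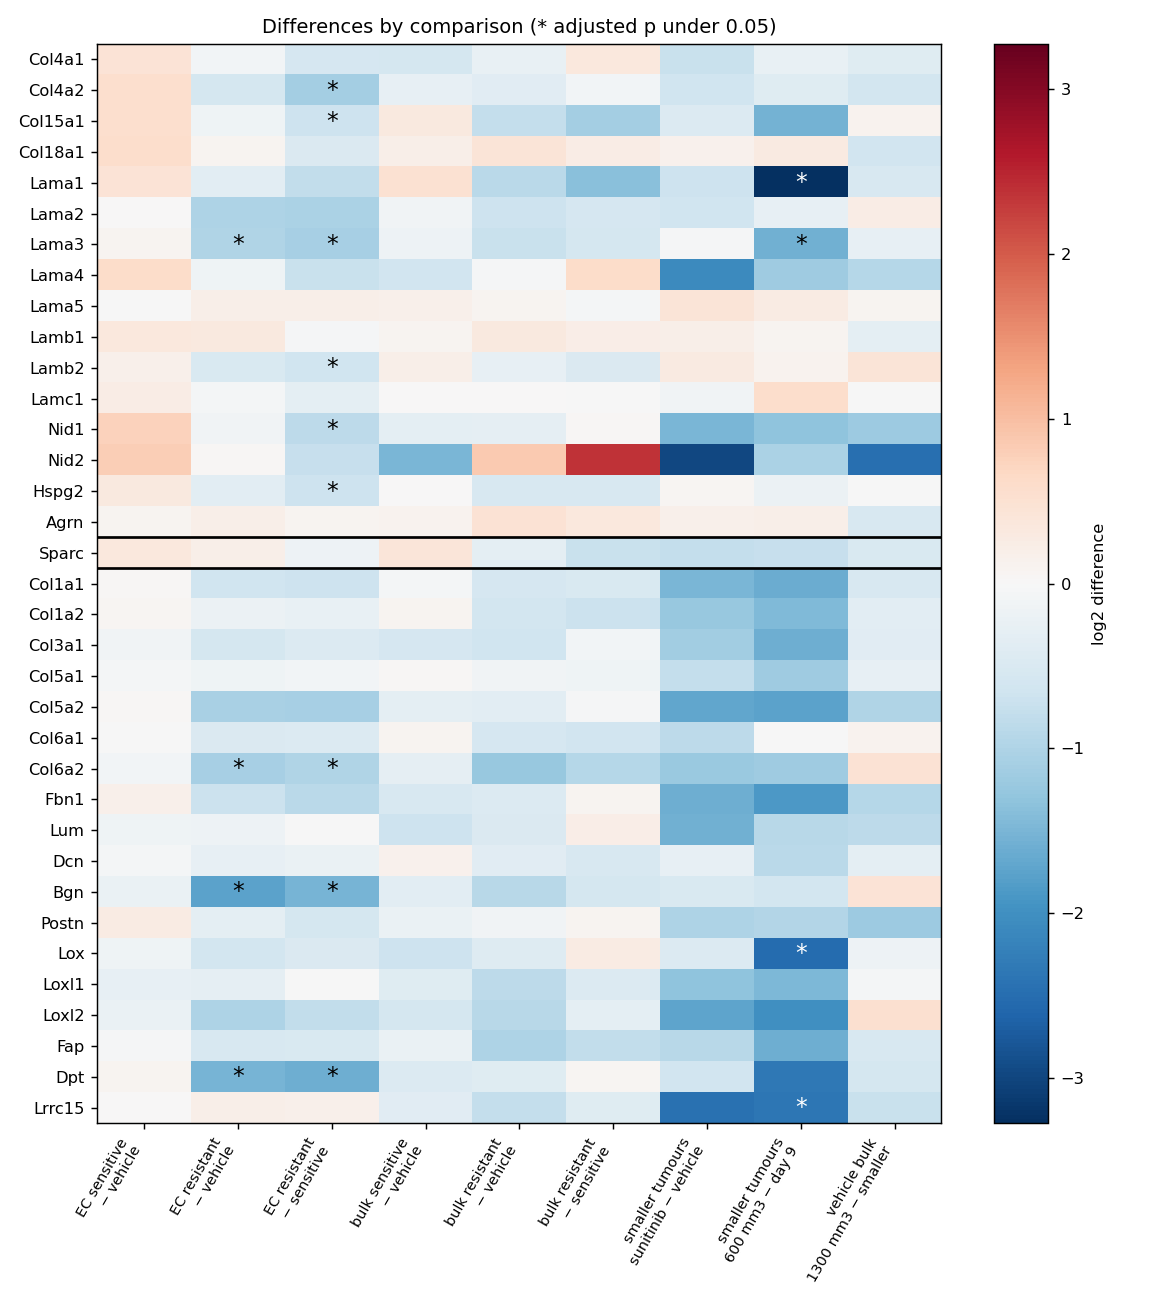
Log2 difference of each of the 35 members in 9 comparisons, each the first-named group of its column minus the second, on a colour scale from blue (lower) to red (higher), with an asterisk where the limma adjusted p was under 0.05; lines part basement membrane genes (top), Sparc and stromal genes (bottom). The 18 stromal genes are below 0 in both smaller-tumour columns and in bulk resistant minus vehicle, and asterisks stand in 3 columns: EC resistant minus vehicle, EC resistant minus sensitive and 600 mm3 minus day 9.

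Whether the effect of treatment differed between the fractions was tested directly with mouse as a block. For sensitive against vehicle none of 35 members was called (0% of all genes tested, with 875 at an unadjusted p under 0.05). Nid2 gave an EC minus bulk difference of effects of 2.30 ± 0.70, since it was 6.14 ± 0.44 higher in EC than bulk in sensitive mice, against 3.84 ± 1.67 in vehicle mice (SD, n = 4 each). Lama4 gave 1.22 ± 0.43, Nid1 1.08 ± 0.46, Col4a1 1.01 ± 0.35 and Col4a2 0.81 ± 0.30, all with a limma adjusted p of 1. Endothelial markers were positive in 16 of 17 cases (median 1.75), mural markers in 11 of 12 (0.60) and macrophage markers in 8 of 9 (1.13), and epithelial markers were negative in 12 of 12 (-0.51), none called. Their part in these values was not tested. For resistant against vehicle none of 35 was called, against 0.273% of all genes tested. The fractions of resistant mice shared a slide and those of vehicle mice did not. Slide and the difference of effects can therefore not be told apart for resistant mice. The values furthest from 0 were -1.12 ± 1.01 for Dpt, 0.96 ± 0.49 for Lrrc15 and -0.86 ± 0.32 for Bgn. Without resistant mouse 2, Col15a1 was called, at 1.68, against 2.36% of all genes tested.

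The last comparison sets vehicle bulk tumours of 1300 mm3 against the 4 smaller vehicle tumours. None of 35 members was called, against 9.11% of all genes tested. The basement membrane median was -0.35 and the stromal median -0.36, beside 0.05 over all genes tested. Nid2 had -3.31, 0.37, -3.16 and -3.26 at 1300 mm3, against 0.13 and -0.31 at day 9 and 0.26 and 0.46 at 600 mm3, and its difference of -2.47 ± 0.76 fell short of the threshold (limma adjusted p 0.0545). Mouse 3 at 1300 mm3 lay within the range of the smaller tumours, and the other 3 far below it. Without that array 4 members were called lower: Nid2 (-3.38), Nid1 (-1.61), Lama4 (-1.44) and Col4a2 (-0.85), against 15.8% of all genes tested. Without bulk resistant mouse 2, which enters only through the shared estimate of the spread, 4 were also called lower: Nid2, Nid1, Col4a2 and Agrn, against 30.4%.

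Nid1 gave -1.20 ± 0.51, Postn (periostin) -1.18 ± 0.50, Col5a2 -1.0 ± 0.53, Lama4 -0.93 ± 0.51, Col1a1 -0.52 ± 0.47, Col3a1 -0.38 ± 0.56, Col4a1 -0.39 ± 0.30 and Sparc -0.51 ± 0.30 in the larger tumours, none called. Endothelial markers were lower in 17 of 17 cases with 7 called, among them Cdh5 at -3.36. Their mean level was -2.97 to 0.96 at 1300 mm3, against 0.27 to 0.80 in the smaller vehicle tumours. Size and slide cannot be told apart in this comparison.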

How the data were processed

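RNA of 32 samples was measured on single-colour Agilent arrays. The authors deposited scanner files with intensity values per spot, processed with Agilent Feature Extraction 10.7.3.1 per the file headers (9.1 per the submitters' processing notes), and a table of intensity values of all samples whose normalization is not given in the sources used here. From the deposited processed signal, log2 values were taken relative to each array's 75th percentile over non-control spots, without outlier spots. Probes were named through RefSeq accessions (26582 of 55681), and 5 of 199 genes of the lists were not found. A gene was tested if its brightest probe was detected well above background on a number of arrays equal to the smallest group or more. The number of arrays per group limits the precision.

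Differences were tested with limma 3.58.1 (R 4.3.3) over all genes with Benjamini-Hochberg adjustment, after the procedure had been tested on simulated data. EC and bulk arrays of a mouse were blocked, since the labels give 1 tumour for both. Deviations of these 2 arrays from their group means correlated at -0.03 to 0.48. The bulk array of the same mouse was the best match except for resistant mouse 4 (-0.03) and vehicle mouse 3 (0.32). Alternatives were normexp background correction (offset 50, on median signals, as the files used hold no mean signal), quantile normalization, the deposited table, other filters, the mean of a gene's probes, the replicate number as a block and arrays left out in turn. The members and lists were chosen with earlier results of these data known. Named were all members, the 6 with the largest differences per comparison together with Col4a1, Col4a2, Lama4, Sparc, Col1a1 and Col3a1, and up to 3 genes of each other list.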

Additional observations from a re-analysis of the deposited data

Results flagged for a closer look

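In groups of 4 arrays, the gap of a value to the nearest other was divided by the range of the group. A value was singled out where this ratio exceeded Dixon's 95% critical value. This held for 11 of 210 groups of values (5.24%), and chance gives about 5%. Of these 11, 5 were on the bulk array of resistant mouse 2: Col15a1 at -0.79 (others -4.90 to -4.75), Col1a2 at 4.93 (others 6.51 to 6.69), Col4a1 at 2.41 (others 3.44 to 3.62), Col6a1 at 2.89 (others 4.58 to 4.83) and Lamc1 at 3.29 (others 4.62 to 4.85). That array also had 83.5% of probes well above background, against 55.3% to 58.8% on the other resistant bulk arrays.

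Nid2 on the bulk array of vehicle mouse 3 was at 0.37 (others -3.31 to -3.16), on the array whose endothelial mean was 0.96. In the EC fraction of sensitive mouse 3, Col3a1 was at 4.33 (others 5.25 to 5.33) and Fbn1 at 0.27 (others 0.70 to 0.77). Col18a1 was at 4.61 in the EC fraction of resistant mouse 1 (others 3.83 to 3.89), Lama2 at -0.25 in bulk of resistant mouse 4 (others -1.10 to -1.01) and Agrn at 4.15 in bulk of sensitive mouse 4 (others 4.72 to 4.78).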

How the results depend on the processing

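Of 47 called values of members, 15 kept their call in every other setting and 25 in every fit with a mouse or array left out. The number of members called moved as follows, with the share of all tested genes called in brackets. Ranges with an array left out carry no share here. For EC against bulk it was 8 in the resistant mice alone (15.0%), against 22 (52.0%). For EC against bulk in resistant mice, 8 were called (15.0%), against 5 with quantile normalization (3.93%) or the mean of probes (12.7%). There were 0 without a filter (0.318%), and 2 to 7 with a mouse left out. For EC resistant against vehicle, 4 were called (46.3%), against 8 with quantile normalization (35.5%) and 7 in the deposited values (34.1%). With the replicate block 14 were called (46.5%), although the numbers do not pair these mice, with correlations of 0.10, -0.23 and 0.24. With an array left out 3 to 14 were called, 14 being without EC resistant mouse 1. The block also takes that mouse out of the contrast, since no other EC group has its number. For EC resistant against sensitive, 9 were called (46.0%), against 14 in the deposited values (33.4%) and 20 with the replicate block (46.9%). With an array left out there were 3 to 19. For bulk resistant against vehicle, 0 were called (8.01%), and 0 to 3 with an array left out. Col6a2 alone was called with normexp (6.23%), quantile normalization (13.5%), the deposited values (13.6%) or the stricter filter (7.29%). For bulk resistant against sensitive, 0 were called (12.3%), against 3 with quantile normalization (17.8%) and 1 in the deposited values (18.4%) or with the stricter filter (12.1%). With an array left out there were 0 to 2. The basement membrane median there ranged from -0.17 to 0.34 with an array left out. For the resistant effect, EC minus bulk, 0 to 1 were called with a mouse left out. For smaller tumours, sunitinib against vehicle, this was 0 to 5. For 600 mm3 against day 9, 4 were called (4.37%), against 9 in the deposited values (4.63%) and 1 without a filter (2.44%). The stricter filter gave 7 (5.36%), and fits with an array left out 0 to 13. For vehicle bulk at 1300 mm3 against smaller tumours, 0 were called, against 1 with normexp or the stricter filter, 2 with quantile normalization or in the deposited values, and 0 to 4 with an array left out.

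The following changed sign among values called in the fits reported above or in the other setting. Dpt was at 0.33 with normexp for EC resistant against vehicle, and at 0.24 with normexp and 0.11 in the deposited values against sensitive. Col15a1 was at 0.69 (then called) and 0.0285 with quantile normalization against vehicle and sensitive. Agrn was at -0.73 and -0.78 with the mean of probes against vehicle and sensitive, both then called (limma adjusted p 0.0149 and 0.0103). Bgn was at -0.26 for EC against bulk in resistant mice alone. Changes of sign in values called in neither fit are not listed. The cause of these changes was not tested. Slide as a block called 0 members for sensitive against vehicle in EC or in bulk. There both groups lay on the same slide, so that fit only repeats the fit without the block and tests nothing. The block could not be fitted for resistant mice against others or for 1300 mm3 against smaller tumours. It was not run for the other comparisons. Dim probes limit Dpt, well above background on 27 of 32 arrays.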
